A study of Saccharomyces cerevisiae with 6 samples.

Results

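Cultures of the budding yeast *S. cerevisiae* given nystatin plus cadmium sulphide quantum dots (CdS QDs) were compared with untreated control cultures across all gene classes on the array. The 4 arrays were taken by their sample titles, 2 for the combined treatment and 2 for the untreated control, out of 6 in the series. The other 2 carried cells given nystatin alone, and their values stand beside the results where they help to place them. All 3 groups were the haploid strain BY4742 of mating type alpha, which carries the alleles his3Δ1, leu2Δ0, lys2Δ0 and ura3Δ0. Cells were grown in YPD medium for 24 h and then treated for 24 h, with 0.27 mg/L nystatin and 100 mg/L CdS QDs in the combined treatment, 0.27 mg/L nystatin in the nystatin group, and fresh medium only in the untreated control. These are the doses of the labels, and the paper's methods give a slightly lower one for nystatin. The arrays of a group carried aliquots of extracted RNA according to the methods, so the spread between them may be technical. Cells given CdS QDs without nystatin were not analysed here, so the effect of the particles alone cannot be told apart from that of the pair.

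Nystatin is a polyene antifungal that binds ergosterol, the main sterol of fungal membranes, and makes the plasma membrane leaky. CdS QDs are nanocrystals that can release cadmium ions, and cadmium in yeast is known to bind thiols such as glutathione and to disturb iron, zinc and copper proteins. Yeast adjusts transcription through regulators that each control a known set of genes, such as Aft1 for iron, Pho4 for phosphate and Msn2 and Msn4 for general stress.

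Each array gave 1 log2 value per probe set, made by the authors with RMA, and 5449 genes were tested. A gene is said to have risen or fallen where its Benjamini-Hochberg adjusted p in limma, over all *S. cerevisiae* probe sets, was under 0.05. It is counted past 2-fold where its log2 fold change was also at least 1 in size. Against the untreated control 1976 genes rose, 36.3% of those tested, and 2134 fell, 39.2%, which makes 75.4% that changed. Most of these changes were small, since 3644 genes moved by less than 0.5, among them 1083 that rose and 1222 that fell. Past 2-fold were 261 genes that were higher, 4.79%, and 280 that were lower, 5.14%. None of these 541 genes had overlapping arrays, while over all genes the arrays of the groups did not overlap in 87.6%. With nystatin alone 561 genes rose, 10.3%, and 626 fell, 11.5%. The standard deviation of the fold changes over all genes was 0.681 in the combined treatment and 0.186 with nystatin alone.

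**Figure D1:**
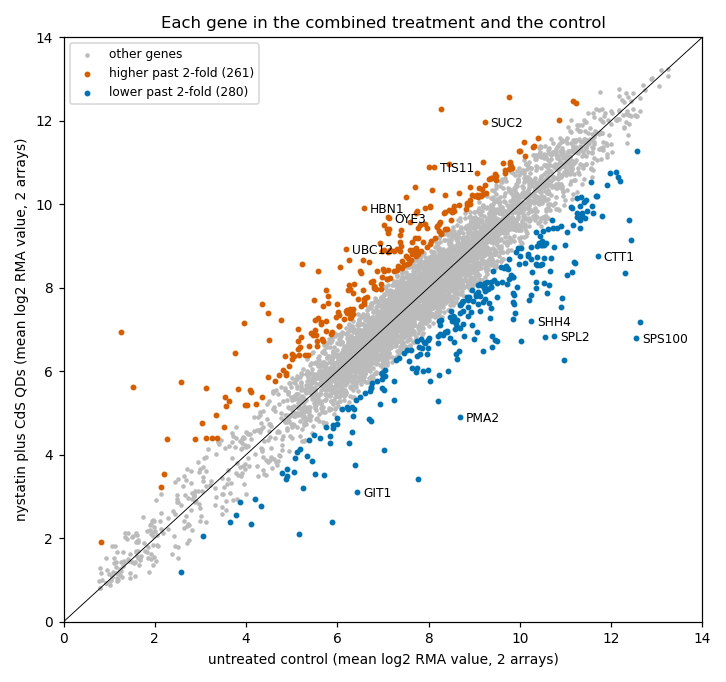
Mean log2 RMA value of each gene over the 2 arrays of the untreated control (horizontal axis) and over the 2 arrays of nystatin plus CdS QDs (vertical axis). Orange points are the 261 genes higher past 2-fold, blue points the 280 lower past 2-fold, grey points all other genes, and the line marks equal values.

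The labels were checked first. *LYS2* and *URA3* lay below background, the 95th percentile of the fission yeast probe sets of an array, on all 6 arrays. *LYS2* was still called as fallen, by 0.21, so the counts above include calls on probe sets below background. *LEU2*, also deleted, lay above background on both control arrays, at 1.50 and 1.67. It also did so on those of the combined treatment, at 2.29 and 1.98, where it rose by 0.55. *HIS3*, of which only a part is deleted, read 7.84 to 8.63. The alpha pheromone gene *MF(ALPHA)1* read from 7.51 to 9.61. The 7 a-specific genes checked here, which alpha cells repress, read from 3.27 to 6.48 and so lay above background too. The 2 arrays of a group correlated at 0.999 in the untreated control and at 0.998 in the combined treatment. In 7 control genes the 3' signal minus the 5' signal averaged 1.47 and 1.41 on the control arrays and 1.58 and 1.58 on the arrays of the combined treatment, and its part in the results was not tested.

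Among the 12 largest rises of genes that the paper does not name was that of *SUC2*, which encodes the secreted invertase that splits sucrose. It read 9.23 and 9.23 on the control arrays, 9.81 and 9.88 with nystatin and 11.93 and 12.003 in the combined treatment, a rise of 2.74 against the control (standard error 0.049, adjusted p = 8.64e-08). The nystatin arrays lay between the other groups, 0.62 above the control. *TIS11* encodes an RNA-binding protein that removes mRNAs of iron-using proteins when iron is scarce. Its values were 8.10 and 8.14 in the control and 10.85 and 10.92 in the combined treatment, a rise of 2.76 (standard error 0.050). *OYE3*, for an NADPH oxidoreductase of the old yellow enzyme family, went from 7.04 and 7.21 to 9.67 and 9.65 and rose by 2.54 (standard error 0.072). Both genes rose with nystatin alone too, by 0.42 and 0.60, and the arrays of the combined treatment stood far above the other 4.

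*UBC12*, whose product attaches the ubiquitin-like protein Rub1 to cullins, read 6.21 and 6.17 in the control and 8.93 and 8.91 in the combined treatment, a rise of 2.73 (standard error 0.044). *SRD1*, linked to the processing of ribosomal RNA, went from 5.69 and 5.45 to 8.32 and 8.46, a rise of 2.82 (standard error 0.087). *AMF1*, for a low-affinity ammonium transporter, went from 3.67 and 3.84 to 6.45 and 6.42, a rise of 2.68 (standard error 0.067). With nystatin alone the 3 genes were at 0.09, 0.08 and 0.02 against the control and did not pass, and only the arrays of the combined treatment were high.

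On the lower side, *CTT1*, for the cytosolic catalase, read 11.72 and 11.69 in the control and 8.68 and 8.82 in the combined treatment. It fell by 2.96 (standard error 0.055, adjusted p = 8.76e-08), and both arrays lay well below the control. *SHH4*, a homologue of the membrane subunit gene *SDH4* of succinate dehydrogenase, went from 10.24 and 10.24 to 7.17 and 7.23 and fell by 3.04 (standard error 0.054). *FMP48*, for a kinase-like protein of mitochondria, went from 10.05 and 10.01 to 6.53 and 6.92 and fell by 3.30 (standard error 0.12). With nystatin alone these genes were at 0.05, 0.04 and 0.22 and did not pass.

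*GIT1*, for the transporter of glycerophosphoinositol, belongs to the phosphate and phospholipid lists. It read 6.35 and 6.53 in the control and 2.93 and 3.27 in the combined treatment and fell by 3.34 (standard error 0.11). *JLP1* encodes a dioxygenase that takes sulphur from sulphonates. Its arrays read 8.13 and 8.27 in the control, 8.50 and 8.40 with nystatin and 5.31 and 5.25 in the combined treatment, so that it fell by 2.92 (standard error 0.062). Neither group of arrays came near the other in these genes.

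**Figure D2:**
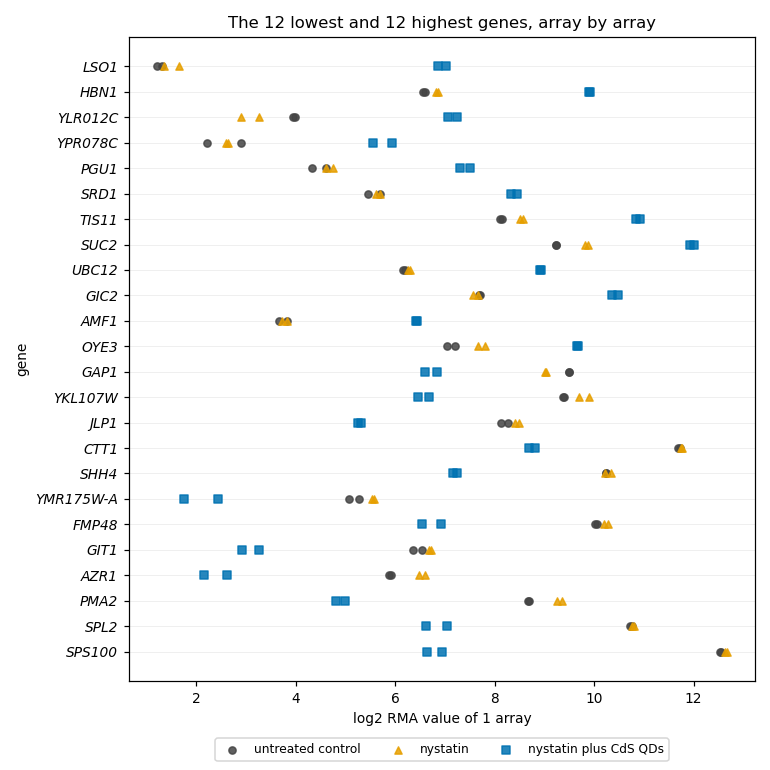
Log2 RMA value of every array (horizontal axis) for the 12 highest and 12 lowest genes outside those named by the study. Circles are the untreated control, triangles nystatin and squares nystatin plus CdS QDs, and the squares lie apart from the other arrays in all 24 genes.

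The genes were then read in 55 lists of known function, some of which share members, and the counts of a list stand against the 36.3% of all genes that rose and the 39.2% that fell. In 47 lists at least 1 member was past 2-fold, and in 22 of them members were past 2-fold in both directions. The median fold change over all genes was −0.02. The median of a list was above 0.5 in 5 lists, below −0.5 in 4 and between these in 46.

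**Figure D3:**
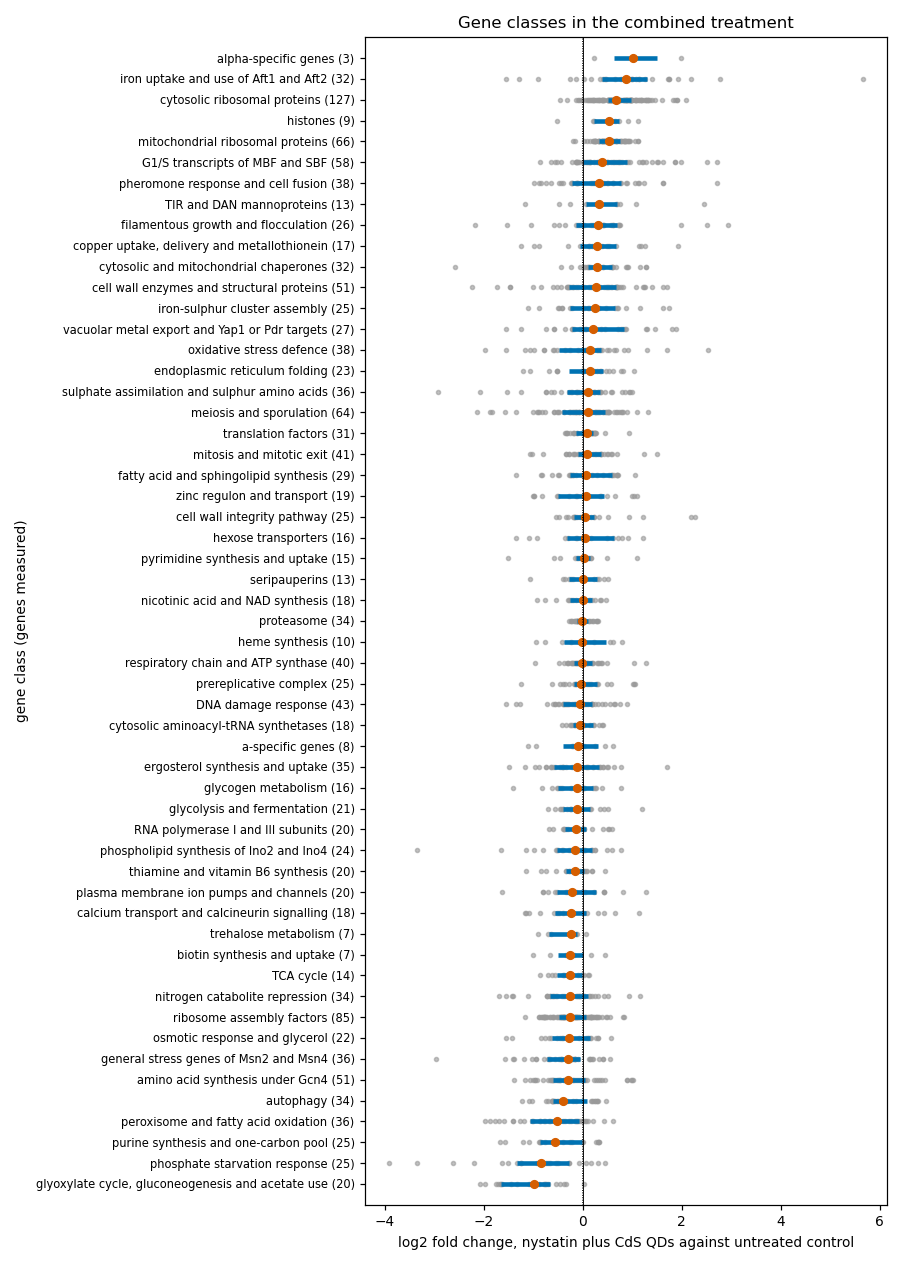
Log2 fold change in the combined treatment against the control (horizontal axis) in 55 gene lists, with the number of genes measured in parentheses. Grey points are genes, the orange point is the median, the blue bar spans the quartiles and the dotted line is the median of all genes. Medians run from −0.99 for the glyoxylate cycle, gluconeogenesis and acetate use to 1.02 for the 3 alpha-specific genes.

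Of 32 genes of iron uptake and use, 26 rose and 4 fell, with a median of 0.88. *ENB1*, for the carrier of the siderophore enterobactin, went from 7.08 and 7.15 to 9.31 and 9.30 and rose by 2.19 (standard error 0.045). *CCC2*, for the pump that loads copper onto the iron oxidase of the cell surface, went from 6.78 and 6.61 to 8.64 and 8.59 and rose by 1.92 (standard error 0.085). The groups did not overlap in either. *FTR1*, the permease that works with that oxidase, rose by 1.72, *FET4*, a low-affinity iron transporter, by 1.403, *HMX1*, the heme oxygenase, by 1.75, and *MRS4*, a mitochondrial iron carrier, by 1.26. *SMF3*, which exports iron from the vacuole, rose by 1.08. *CCC1*, which imports iron into the vacuole, went the other way and fell by 1.29. *GRX4*, for a glutaredoxin that restrains Aft1, fell by 1.55, from 8.84 and 8.89 to 7.28 and 7.35. With nystatin alone 2 of the list rose and 6 fell.

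Iron-sulphur cluster assembly was mixed, with 15 of 25 genes that rose and 8 that fell (median 0.24). The scaffold gene *ISU2* read 7.17 and 7.06 in the control and 8.81 and 8.92 in the combined treatment and rose by 1.75 (standard error 0.058), whereas its paralogue *ISU1* fell by 0.25. *DRE2*, of the cytosolic pathway, rose by 1.62 and the mitochondrial chaperone gene *SSQ1* by 1.17. *NAR1*, a later member of the cytosolic pathway, fell by 1.10. In the heme synthesis list 4 of 10 genes rose and 4 fell, near the shares over all genes. These counts take in the regulator genes *ROX1* and *HAP1*, at 0.79 and −0.76. The ferrochelatase gene *HEM15*, which puts iron into heme, fell by 0.94, and *HEM13*, for coproporphyrinogen oxidase, rose by 0.61.

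Of 17 copper genes 11 rose and 4 fell (median 0.30). The copper carriers of the cytosol and of the mitochondrial intermembrane space, *ATX1* and *COX17*, rose by 1.14 and 1.27, and the high-affinity transporter gene *CTR3* by 1.18. The widest fall of the list was that of *COX19*, by 1.25, from 9.46 and 9.42 to 8.07 and 8.31. *CRS5*, a metallothionein gene, went from 11.01 and 10.98 to 10.11 and 10.10 and fell by 0.89. *CUP2*, for the activator of metallothionein genes, fell by 0.97. *CUP1-1*, of the main metallothionein locus and read on a shared probe set, rose by 0.13 and read 13.22 and 13.21 in the combined treatment against 13.09 and 13.07 in the control, values near the top of the scale.

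Of 19 zinc genes 8 rose and 8 fell, near the shares over all genes. *ZAP1*, for the regulator that answers to low zinc, fell by 1.00 and its target *ZRT1*, for the high-affinity zinc transporter, fell by 0.82. *COT1* and *ZRC1*, which move zinc and cobalt into the vacuole, rose by 0.99 and 0.35. The ethanolamine phosphate transferase gene *MCD4* and the membrane protein gene *IZH3* rose by 1.10 and 1.04.

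Genes of oxidative defence rose in 21 cases and fell in 12 of 38 (median 0.15), with 3 past 2-fold higher and 4 lower. *GPX2*, for a glutathione peroxidase, went from 6.30 and 6.25 to 8.01 and 7.95 and rose by 1.70 (standard error 0.059). *GND1*, of the NADPH-forming pentose phosphate pathway, rose by 1.30. *AHP1*, a thiol peroxidase gene, rose by 0.91, and the cytosolic thioredoxin reductase gene *TRR1* by 0.63. The peroxisomal catalase gene *CTA1* went from 10.70 and 10.66 to 8.59 and 8.84 and fell by 1.97, the widest fall of the list. The cytosolic catalase gene *CTT1*, which fell by 2.96, is not a member of this list. *YAP1*, for the main regulator of this response, fell by 0.60, and the Golgi glutaredoxin gene *GRX6* fell by 1.17.

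In the list of vacuolar metal export and targets of Yap1 or of the Pdr regulators, 14 of 27 genes rose and 9 fell (median 0.22). *VMR1*, for a vacuolar ABC transporter, read 6.99 and 6.98 in the control and 8.88 and 8.86 in the combined treatment and rose by 1.89 (standard error 0.041). *QDR2*, for a multidrug transporter of the plasma membrane, rose by 1.81 and *TPO1*, for a polyamine exporter, by 1.30, while the related *QDR3* fell by 1.56. The transporter gene *PDR12* of weak acid export rose by 1.28. *YCF1*, for the vacuolar pump of glutathione conjugates that carries cadmium, fell by 0.18, from 9.36 and 9.36 to 9.15 and 9.20. *PDR5* rose by 0.86 and its regulator gene *PDR1* fell by 0.22.

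Sulphate assimilation and sulphur amino acid genes rose in 17 of 36 cases and fell in 13. Among those that rose were *MET3*, for ATP sulphurylase, by 1.00, *MET16*, for the PAPS reductase, by 0.93, and *MET2*, which acetylates homoserine, by 0.96. The regulator genes *CBF1* and *MET4* fell by 1.25 and by 0.63. *SSU1*, for the sulphite exporter, read 9.34 and 9.35 in the control and 7.27 and 7.28 in the combined treatment and fell by 2.07 (standard error 0.041). The groups did not overlap in that gene.

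Among 20 genes of the glyoxylate cycle, gluconeogenesis and acetate use, 19 fell and none rose, 10 past 2-fold (median −0.99). *ICL1*, for the isocitrate lyase that starts the glyoxylate cycle, read 11.84 and 11.75 in the control, 11.44 and 11.33 with nystatin and 9.72 and 9.71 in the combined treatment. It fell by 2.08 against the control (standard error 0.055, adjusted p = 3.06e-07), with the lowest values on the arrays of the combined treatment. *MLS1*, for malate synthase, went from 11.39 and 11.46 to 9.68 and 9.66 and fell by 1.76. The carnitine acetyltransferase genes *YAT1* and *YAT2* fell by 1.63 and by 1.97, the related *CAT2* fell by 1.65, and *JEN1*, for the lactate carrier, fell by 1.09. *MDH3*, the peroxisomal malate dehydrogenase gene, was the member that did not pass. With nystatin alone 14 of the list fell and 0 rose, with a median of −0.19.

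Peroxisome and fatty acid oxidation genes fell in 25 of 36 cases and rose in 3 (median −0.51). *PXA1* and *PXA2*, whose products import fatty acids into the peroxisome, fell by 1.78 and by 1.87, and *PEX11*, of peroxisome division, fell by 1.26. *FAA2*, for the acyl-CoA synthetase of the peroxisome, went from 9.93 and 9.79 to 8.22 and 8.31 and fell by 1.59. The members that rose were *PEX25*, *PEX19* and *PEX27*, by 0.62, 0.43 and 0.22.

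The TCA cycle list had 8 of 14 that fell and none that rose. *LSC1*, for a subunit of succinyl-CoA ligase, fell by 0.86 and *ACO1*, for aconitase, fell by 0.71. In the respiratory chain and ATP synthase, 13 rose and 13 fell of 40, near the shares over all genes in both directions. All 4 genes of succinate dehydrogenase in it fell, *SDH1* by 0.38, *SDH2* by 0.96, *SDH3* by 0.47 and *SDH4* by 0.30. Past 2-fold were the hypoxic cytochrome c gene *CYC7*, which rose by 1.28, and the external NADH dehydrogenase gene *NDE1*, which rose by 1.04. *CYC7* also rose with nystatin alone, by 0.82, and the combined treatment stood 0.46 above nystatin. *NDE1* was at 0.04 with nystatin alone and did not pass.

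Of 21 genes of glycolysis and fermentation 6 rose and 11 fell, with a median of −0.12. The member past 2-fold was *HXK2*, for the main hexokinase, which read 8.91 and 8.91 in the control, 9.05 and 9.09 with nystatin and 10.03 and 10.17 in the combined treatment and rose by 1.19 (standard error 0.056). Of the hexose transporters, *HXT4* rose by 1.22 and *HXT11* by 0.91, while *HXT5* fell by 1.35 and *HXT2* fell by 1.09. *PFK27*, for an enzyme that makes the glycolytic activator fructose 2,6-bisphosphate, is outside the lists and was named after its values were seen. It rose by 1.70.

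Trehalose genes fell in 5 of 7 cases, with *TPS2*, for the phosphatase that completes trehalose synthesis, at the front as it fell by 0.91. Of 16 glycogen genes 8 fell, among them the synthase genes *GSY1* and *GSY2*, which fell by 0.83 and by 0.51, and 5 rose, among them the glycogen phosphorylase gene *GPH1* by 0.27 and the debranching enzyme gene *GDB1* by 0.39. General stress genes under Msn2 and Msn4 fell in 25 of 36 cases and rose in 8. After *CTT1*, the widest falls were those of *PHM7* (−1.57), *GTT1*, a glutathione transferase gene (−1.40), and *RTN2* (−1.38). *XBP1*, for a repressor induced by stress, fell by 1.19.

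Chaperone genes went the other way, since 23 of 32 rose and 3 fell (median 0.28). *HSP31*, for a methylglyoxalase and chaperone, went from 9.96 and 10.004 to 11.30 and 11.24 and rose by 1.29 (standard error 0.048). *HSP30*, for a stress protein of the plasma membrane, rose by 1.29, and the Hsp90 partners *CPR6* and *AHA1* by 1.16 and 0.92. *HSP30* also rose with nystatin alone, by 0.81, and the combined treatment stood 0.48 above nystatin. *CPR6* was at 0.004 with nystatin alone and did not pass. The mitochondrial chaperonin genes *HSP60* and *HSP10* rose by 0.59 and 0.90. *SSA3*, an Hsp70 gene of starved and stressed cells, stood against the list: it read 10.61 and 10.66 in the control and 8.11 and 8.02 in the combined treatment and fell by 2.57.

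In the endoplasmic reticulum, 12 of 23 folding genes rose, led by the exchange factor gene *SIL1* (1.03) and the oxidase gene *ERO1* (0.81), with the Hsp70 gene *KAR2* at 0.61. The glucosidase gene *ROT2* fell by 1.07, the disulphide isomerase homologue *MPD2* fell by 1.20, and the sensor gene *IRE1* fell by 0.52. Proteasome genes stayed within −0.28 and 0.32, with 18 of 34 that did not pass. Autophagy genes fell in 23 of 34 cases. *ATG16*, of the complex that attaches Atg8 to lipid, fell by 1.23, *ATG5*, of the same complex, fell by 1.08, and *ATG14*, of the lipid kinase complex, fell by 1.02. *ATG8* itself rose by 0.28.

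The protein synthesis lists did not move together. Of 127 cytosolic ribosomal protein genes 117 rose and 2 fell, with 27 past 2-fold higher and a median of 0.68. Leaving out the 24 whose probe sets are shared with another gene, 95 of 103 rose, with a median of 0.70. Many are in near-identical pairs that the probes may not separate. *RPS22A*, of the small subunit, went from 7.70 and 7.81 to 9.92 and 9.76 and rose by 2.08, and *RPL33B*, of the large subunit, went from 8.03 and 8.05 to 10.005 and 9.89 and rose by 1.91. The members that fell were *RPL4A*, read on a shared probe set, at −0.33, and *RPP2B*, of the ribosomal stalk, at −0.46. Ribosomal protein genes are mostly short, and the 3' minus 5' signal given above was also higher on the same arrays. Its part in the rise was not tested.

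Mitochondrial ribosomal protein genes rose in 62 of 66 cases, with *MRPS8* first at 1.13. With nystatin alone 32 of them rose, with a median of 0.20. Factors that assemble the cytosolic ribosome fell in 49 of 85 cases and rose in 14 (median −0.26). *NSA2*, of the large subunit, fell by 0.88, and *NMD3*, its nuclear export adaptor, fell by 0.80, while *EMG1*, of the small subunit, rose by 0.81. In the list of RNA polymerase I and III subunits, which also holds the initiation factor gene *RRN3*, 9 of 20 genes fell and 5 rose. *RRN3* fell by 0.60. Translation factor genes had a median of 0.10, and the widest change among them was the rise of *TIF4632*, for a form of eIF4G, by 0.94. Cytosolic tRNA synthetase genes had a median of −0.05.

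Nitrogen catabolite repression genes fell in 17 of 34 cases and rose in 9. *GLN1*, for glutamine synthetase, read 11.29 and 11.33 in the control and 9.50 and 9.75 in the combined treatment and fell by 1.68 (standard error 0.080). The repressor genes *DAL80* and *GZF3* fell by 1.54 and by 1.41, and the ammonium permease gene *MEP2* fell by 1.10. *DAL4* and *DAL1*, which take up and open allantoin, went the other way and rose by 1.15 and 0.94. *CAR1*, for arginase, is outside the lists and was named after its values were seen. It rose by 1.29.

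Among 51 genes of amino acid synthesis under Gcn4, 33 fell and 11 rose. *GLT1*, for glutamate synthase, went from 9.52 and 9.48 to 8.06 and 8.19 and fell by 1.38. *ASN1*, *LYS4* and *LEU4*, of asparagine, lysine and leucine synthesis, fell by 1.16, by 1.07 and by 1.00. *SER3* and *SER2*, of serine synthesis, rose by 1.01 and 1.00. Serine feeds the one-carbon pool, and in the purine and one-carbon list 17 of 25 genes fell (median −0.55).

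*GCV1*, for a subunit of the glycine cleavage system, read 8.46 and 8.50 in the control, 8.67 and 8.72 with nystatin and 6.75 and 6.85 in the combined treatment and fell by 1.68. The groups did not overlap. *GCV2* and *GCV3*, of the same system, fell by 1.21 and by 0.57, and the purine gene *ADE17* fell by 1.58, and *IMD3*, of GTP synthesis, fell by 1.08. Members that rose were 5, at most by 0.33 (*GUK1*). Pyrimidine genes mostly did not pass, 9 of 15. In the same list the permease gene *FCY2* fell by 1.51 and the cytosine deaminase gene *FCY1* rose by 1.09. In the vitamin lists *SNO1*, of vitamin B6 synthesis, and *BIO2*, for biotin synthase, were past 2-fold lower, at −1.14 and −1.01.

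The phosphate starvation list fell in 20 of 25 cases (median −0.83). *PHM6* and the acid phosphatase gene *PHO11* fell by 2.63 and by 2.18, the latter from 8.71 and 8.62 to 6.50 and 6.46 on a probe set that other genes share. The vacuolar polyphosphate genes *VTC1*, *VTC3* and *VTC4* fell by 1.25, by 1.33 and by 1.51, and *PHO81*, for the inhibitor of the Pho80 and Pho85 kinase, fell by 1.62. *PHO85*, for that kinase, rose by 0.45.

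Ergosterol, to which nystatin binds, is made by a long pathway. Of 35 genes, 13 rose and 16 fell against the control, with a median of −0.11, and with nystatin alone 10 rose and 1 fell, with a median of 0.07. *ERG4*, for the last enzyme of the pathway, read 7.79 and 7.84 in the control, 7.95 and 7.93 with nystatin and 9.50 and 9.52 in the combined treatment and rose by 1.70 (standard error 0.043, adjusted p = 2.62e-07). *ERG25*, for a methyl sterol oxidase, went from 10.46 and 10.60 to 8.94 and 9.13 and fell by 1.50 (standard error 0.077). With nystatin alone *ERG4* was at 0.13 and did not pass, whereas *ERG25* went the other way and rose by 0.42, to 10.96 and 10.94. *UPC2*, for the sterol-responsive activator, fell by 1.16 in the combined treatment, and *HMG1*, for an HMG-CoA reductase, fell by 0.97. *HMG1* too had risen with nystatin alone, by 0.30. *ERG11*, for the target of azoles, fell by 0.59, and *ERG3* rose by 0.64. Between nystatin plus CdS QDs and nystatin, 10 of the list rose and 16 fell, where 36.4% of all genes rose and 38.5% fell.

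Among phospholipid genes under Ino2 and Ino4, 7 rose and 12 fell of 24. *OPI3*, of phosphatidylcholine synthesis, fell by 1.65 and *ITR1*, for the inositol transporter, fell by 1.15. The desaturase gene *OLE1* went from 11.50 and 11.42 to 10.19 and 10.02 and fell by 1.36, and the fatty acid synthase genes *FAS1* and *FAS2* fell by 0.84 and by 0.61. The elongase genes *ELO1*, *ELO2* and *ELO3* rose by 0.63, 0.70 and 1.06.

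Of 20 genes of ion pumps and channels 11 fell and 6 rose. The proton pump gene *PMA1* fell by 0.80 and the kinase gene *HAL5*, which regulates potassium uptake, fell by 1.62. The related pump gene *PMA2*, outside the list, went from 8.68 and 8.69 to 4.82 and 4.98 and fell by 3.78. With nystatin alone *PMA2* rose by 0.62. Of 18 calcium genes 12 fell and 4 rose. The vacuolar pump gene *PMC1* and the calcineurin regulator gene *RCN1* fell by 1.09 and by 1.14, and *CRZ1*, the factor that calcineurin activates, fell by 0.86. *CNB1*, for the regulatory subunit of calcineurin, rose by 1.14. In glycerol metabolism *GUT2* and *GPP1* fell by 1.55 and by 1.43, and the channel gene *FPS1* fell by 0.75.

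Cell wall genes rose in 30 of 51 cases and fell in 16 (median 0.26). *UTR2*, for an enzyme that links chitin to glucan, read 5.56 and 5.45 in the control and 7.16 and 7.28 in the combined treatment and rose by 1.71 (standard error 0.064). *CHS7*, for the export factor of chitin synthase, rose by 1.63, the glucanase gene *EXG2* by 1.395, the transglycosylase gene *GAS1* by 1.23 and the mannoprotein gene *CWP1* by 1.07. *NCA3*, of the SUN family, went from 8.93 and 9.06 to 6.82 and 6.71 and fell by 2.23. The phospholipase gene *PLB2* and the yapsin gene *YPS1* fell by 1.72 and by 1.46. In the cell wall integrity pathway 8 of 25 genes rose, 8 fell and 9 did not pass, near the shares over all genes. The widest rises of the list were those of *PRM5* and *KDX1*, by 2.27 and 2.19. The sensor gene *WSC2* and the kinase gene *SLT2* rose by 1.22 and 0.93, whereas the sensor gene *SLG1* fell by 0.53.

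Filamentous growth genes rose in 14 of 26 cases. The regulator genes *TEC1* and *STE12* rose by 0.73 and 0.61 and *FLO8* by 0.73, while *FLO11*, for the main adhesin, was at 0.18 and did not pass. *HMS1*, for a factor linked to pseudohyphal growth, went from 5.67 and 5.74 to 3.45 and 3.60 and fell by 2.18.

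Pheromone response genes rose in 22 of 38 cases and fell in 11, the lowest at −0.98. Among those that rose were *PCL2*, for a cyclin of the Pho85 kinase, by 1.62, the agglutinin anchor gene *AGA1* by 1.25 and *FIG1* by 1.14. *FAR1*, for an inhibitor of the G1 kinase, and *SST2*, which damps the signal, rose by 0.90 and 1.12. *FUS3*, for the kinase of the pathway, rose by 0.87. The receptor of alpha factor, encoded by the a-specific gene *STE2*, is normally absent from alpha cells. That gene read 5.79 and 5.72 in the control and 4.79 and 4.52 in the combined treatment and fell by 1.10. In a list of the a-specific genes checked at the start plus *AXL1*, 3 of 8 rose and 4 fell. *AXL1* was not among the genes checked and is not taken as a-specific here. The a-specific genes that rose were *AGA2* at 0.61 and *MFA2* at 0.26, and *AXL1* rose by 0.45. The call of *AGA2* was lost without variance moderation (limma adjusted p = 0.118). It was also lost without untreated control replicate 1 and without nystatin plus CdS QDs replicate 2, where *AGA2* was at 0.48 and 0.51. *STE3*, for the receptor that alpha cells use, rose by 0.24 (adjusted p = 0.00863), a call that was lost without untreated control replicate 1 (limma adjusted p = 0.0545) and without variance moderation (0.0528), out of alternatives that gave from 0.00305 to 0.0545.

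Of 58 G1/S transcripts 37 rose and 7 fell (median 0.39). *AXL2*, for a landmark of bud sites, went from 7.01 and 7.04 to 8.83 and 8.97 and rose by 1.87 (standard error 0.055). The cyclin genes *PCL1* and *CLN2* rose by 1.86 and 1.29, and *RSR1*, for the GTPase of bud site choice, by 1.51. *WHI5*, for the inhibitor that holds cells in G1, fell by 0.87, whereas *CLN3*, for the cyclin that acts on it, was at −0.13 and did not pass. In the licensing and initiation of replication 11 of 25 genes did not pass. *CDC6*, *CDC7* and *MCM2* rose by 1.03, 1.06 and 1.02, and *MCM10* fell by 1.26. Histone genes rose in 8 of 9 cases, led by *HHT1* at 1.12, while *HTZ1*, for the variant H2A.Z, fell by 0.52.

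Mitotic genes rose in 17 of 41 cases and fell in 9. *SLI15*, of the chromosomal passenger complex, rose by 1.50, and *DBF2*, for a kinase of mitotic exit, by 1.24.

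Of 64 meiosis and sporulation genes 25 rose and 21 fell, near the shares over all genes. The 2 main activator genes were lower. *IME1* went from 7.91 and 7.84 to 5.92 and 6.08 and fell by 1.87, and *NDT80* went from 6.62 and 6.75 to 4.86 and 4.85 and fell by 1.83. The spore wall gene *OSW2* fell by 2.13. *HOP2* and *SPO16*, of chromosome pairing and crossing over, rose by 1.09 and 1.33. In the DNA damage response 14 of 43 rose and 19 fell. The ribonucleotide reductase genes *RNR3*, *RNR2* and *RNR4*, which rise with DNA damage in yeast, fell by 1.54, by 1.34 and by 0.55, and *RNR3* went from 7.999 and 7.92 to 6.35 and 6.49. *DUN1*, for a kinase of the checkpoint, rose by 0.89.

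Paralogues with the same biochemical role were compared next, in 63 measured pairs. In 24 pairs both members changed in the same direction, and in 23 pairs 1 member rose while the other fell, each by its own test. Over all genes 36.3% rose and 39.2% fell, and nothing further is read from the counts of pairs. In none of the 23 pairs were both members past 2-fold, and their fold changes lay between 0.30 and 2.30 apart. The pair of ribonucleotide reductase large subunits was *RNR1*, which rose by 0.76, and *RNR3*, which fell by 1.54. Of the 6-phosphogluconate dehydrogenase genes, *GND1* rose by 1.30 and *GND2* fell by 0.98. *TRR1* and *TSA1*, of the cytosolic thioredoxin system, rose by 0.63 and 0.48, while their partners *TRR2*, of mitochondria, and *TSA2* fell by 1.06 and by 0.78.

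Other pairs with opposite members were *CYC7* and *CYC1*, the cytochrome c genes, at 1.28 and −0.24, and *COX5B* and *COX5A*, for forms of a cytochrome c oxidase subunit, at 0.50 and −0.22. The member that is induced under low oxygen in yeast was the higher in both pairs. *TKL1* and *TKL2*, for transketolases, were at 0.35 and −1.36. *MSN4* rose by 1.11 while *MSN2* fell by 0.24. The cyclin gene *CLB2* rose by 0.69 and *CLB1* fell by 1.06.

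**Figure D4:**
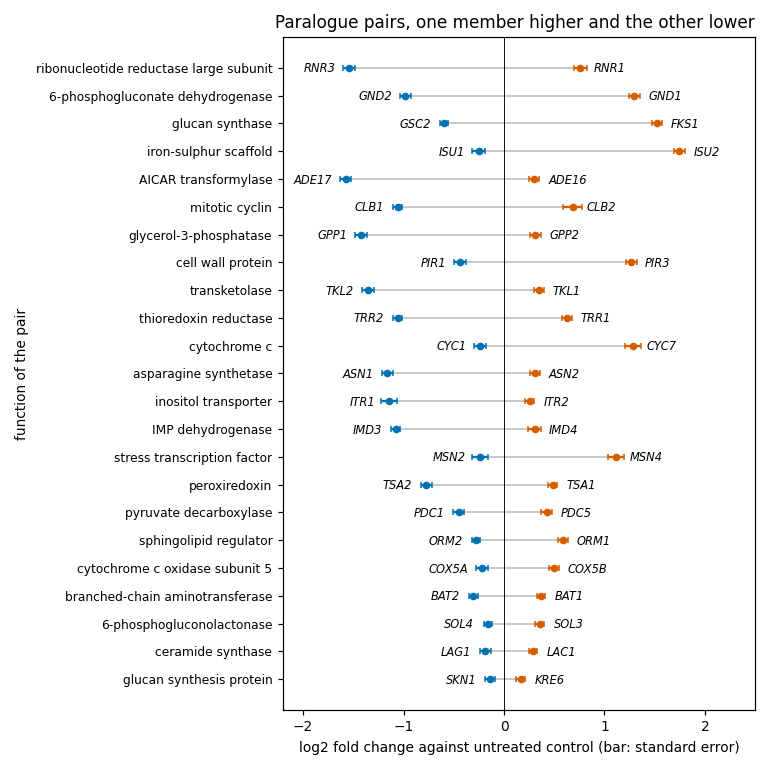
Log2 fold change in the combined treatment against the control (horizontal axis) for both members of the 23 paralogue pairs with opposite changes. Points are fitted fold changes, bars their standard errors, and lines join the members of a pair, 0.30 to 2.30 apart.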

How the data were processed

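RNA of 6 samples was hybridised to GeneChip Yeast Genome 2.0 arrays, 1 array per sample. The authors deposited log2 values that RMA, run in Affymetrix Expression Console, had corrected for background, quantile normalized and summarised per probe set. RMA hides any shift shared by all genes. Of 10928 probe sets, the 5498 paired with *S. cerevisiae* genes by the platform annotation and R64 gene names were tested, and a gene with several was given by the brightest. Background was the 95th percentile of 1747 *S. pombe* probe sets on each array. The number of arrays limits the precision.

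A linear model with 1 mean per group was fitted over the 6 arrays in limma 3.58.1 (R 4.3.3) with empirical Bayes moderation (3 residual and 3.80 prior degrees of freedom), two-sided tests and Benjamini-Hochberg adjustment over all tested probe sets. Fold changes are on the log2 scale, nystatin plus CdS QDs minus untreated control unless another comparison is named. Members, lists and paralogue pairs were chosen from general knowledge with earlier results of these data known, so their counts are no independent support. An RNase P gene taken into the ribosomal list by its name was removed after its values were seen. By the naming rule the text or its plots give the 12 highest and 12 lowest genes past 2-fold that the paper does not name. The rule also picked up to 4 leading members per list. The text names only some of these, so the members given are not always the leaders of a list. Further members were named as examples after their values were seen. Genes of the paper were left to one side. Replicate numbers were not taken as pairs. The fit was tested on simulated data. Alternatives varied the moderation, the arrays fitted, the normalization, dim probe sets, the probe set summary, the block, the thresholds and the arrays left out. The result of 1 gene list is not reported here. Promoter motifs, gene lengths and coordinates were not used here, only the order of neighbouring genes. Python 3.11.15 was used for tables and figures, with pandas 2.3.3, numpy 2.4.6 and matplotlib 3.10.9.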

Additional observations from a re-analysis of the deposited data

Results flagged for a closer look

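Outside the genes tested, 3470 probe sets have no gene listed for them here. In the combined treatment 335 of these lay above background, and 9 were at least 2-fold higher than in the untreated control and 20 at least 2-fold lower. The widest rise among them was 4.69 on the log2 scale. Among the 1747 *S. pombe* probe sets, which served as the background, none was past 2-fold in either direction. What the 9 probe sets detect was not tested.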

How the results depend on the processing

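Against the untreated control, 261 genes were higher and 280 lower past 2-fold, and with a 4-fold threshold (2 on the log2 scale) the counts were 40 and 55. Over the other settings the counts stayed within 1.5 times the reported ones. With each array left out in turn, 245 to 279 genes were higher, 276 to 305 lower, 1723 to 1947 rose and 1855 to 2092 fell, and against nystatin alone 1741 to 1939 rose and 1834 to 2039 fell. Of the 541 genes past 2-fold, 496 to 541 were shared with each setting that kept the 2-fold threshold. With the quantile step repeated over budding yeast probe sets only, 271 were higher and 270 lower. Without moderation 1732 rose and 1898 fell.

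With the replicate number as a block 261 genes were higher and 280 lower, 1969 rose and 2124 fell. Array deviations from the group means did not go together by number (r = 0.01 across probe sets between the control and the combined treatment), so the numbers were not read as pairs. With arrays left out in turn, the median of the heme synthesis list, −0.02, ran from −0.077 to 0.043, and turned to 0.0096 without untreated control replicate 2 and to 0.043 without nystatin plus CdS QDs replicate 2. That of the cell wall integrity pathway, 0.05, ran from −0.020 to 0.053, and turned to −0.020 without untreated control replicate 2 and to −0.0039 without nystatin plus CdS QDs replicate 1. The cause was not tested. Over all 55 lists and these settings no median moved by more than 0.12. Of 225 genes picked by the naming rule 3 lost their call under some setting (*AGA2*, *STE3* and *BIO5*) and none turned direction. This count does not cover the further genes named as examples.

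Where the arrays of a group carry aliquots of the same RNA, the tests do not cover the spread between cultures. With 75.4% of genes called, small changes pass.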

Other observations

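Neighbours on the chromosome were looked at in the order of the annotation. In 6 places at least 3 neighbouring measured genes were past 2-fold in the same direction, higher in 3 and lower in 3. On chromosome V *UTR2*, *CYC7* and *UTR4* were higher, by 1.71, 1.28 and 1.17. On chromosome XIII *RCH1*, *IMP2* and *MIH1* were lower, at −2.41, −1.18 and −1.46. *RCH1* encodes a regulator of calcium uptake and *MIH1* the phosphatase that starts mitosis. On chromosome XII *PUN1*, *YLR415C* and *VPS36* were lower, at −1.63, −1.46 and −2.26. The others were *FUS1*, *HBN1* and *FRM2* on chromosome III, *FIT2*, *FIT3* and *FRE5* on chromosome XV, both higher, and *CMK2*, *IRC10* and *YOL014W* on chromosome XV, lower.

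Of 499 open reading frames without a gene name, 35 were higher and 27 lower past 2-fold, where the shares over all genes are 4.79% and 5.14%. The lists held 1582 of the 5449 genes and 215 of the 541 past 2-fold, 110 higher and 105 lower. Most genes past 2-fold lay outside every list, as did most genes tested, and those outside were not read by function.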
